A study of Macaca mulatta with 15 samples.

Results

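The AP-1 family is described here through 8 genes, JUN, JUNB, JUND, FOS, FOSB, FOSL1, FOSL2 and ATF3, in T cells from the blood of rhesus macaques given a cyclodextrin. Members were chosen by symbol, taken from the row names of the deposited count table. All 8 were found among its 34884 genes, each in 1 row, and all 8 were among the 14814 genes that passed the filter on low counts. Their Ensembl identifiers are ENSMMUG00000059326 (JUN), ENSMMUG00000005688 (JUNB), ENSMMUG00000038371 (JUND), ENSMMUG00000040100 (FOS), ENSMMUG00000014430 (FOSB), ENSMMUG00000008653 (FOSL1), ENSMMUG00000014464 (FOSL2) and ENSMMUG00000012185 (ATF3). The set was drawn up with earlier results of these data known, in which JUN and FOS stood out for their change in 1 of the animals. The before and after changes per animal are therefore given below as descriptions, without a test.

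The 15 libraries come from 2 healthy animals, RhDBCb and RhM22, and from 4 subsets, CD4 naive, CD4 memory, CD8 naive and CD8 memory T cells. Before libraries carry the treatment label "none". After libraries were drawn from the same animals treated with 2-hydroxypropyl-beta-cyclodextrin, the Kleptose HBP preparation, as a 15% (w/w) solution injected under the skin. The daily dose was 1 ml/kg, and dosing lasted at most 120 days. Each of the 8 subset-by-time groups holds 1 library per animal, except CD8 naive after treatment, which is RhM22 alone. Genotype, sex, age, the day of each draw and the way the subsets were separated are not given in the labels used here, and no untreated animal followed over the same time is among these libraries.

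AP-1 is a dimer of basic leucine zipper proteins that binds a short palindromic DNA element. Jun proteins pair with each other or with Fos and ATF proteins, whereas Fos proteins need a Jun partner. Many members are early response genes, transcribed quickly after a signal through MAP kinases without new protein synthesis. In T cells AP-1 acts with NFAT downstream of the antigen receptor and co-stimulation. The same genes also respond to stress and to the handling of cells.

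Levels below are CPM, counts scaled to a library total of 1000000 after TMM scaling. Library totals ran from 44414954 to 71787193 counts, so that even FOSL1, the scarcest member, had 53 to 330 counts per library. Lineage markers followed the labels, with summed CD8A and CD8B at 894 to 1131 CPM in CD8 libraries and at most 4.38 CPM in CD4 libraries. The 6 memory markers summed to 5116 to 8951 CPM in memory and 1756 to 3007 CPM in naive libraries. The 5 naive markers overlapped within the CD4 lineage, at 8201 to 20442 CPM in naive and 7313 to 11034 CPM in memory libraries. In RhDBCb before treatment, the 4 libraries had 13525 to 14750 genes detected and 12.4% to 15.1% of their counts in the top 10 genes. The other 11 held 14410 to 15445 detected genes with 8.18% to 12.7% in the top 10, so that both measures overlapped. Before treatment 37.6% of all genes tested differed between the animals (edgeR, adjusted p under 0.05), and 6.44% did after treatment. A draw means here the libraries of 1 animal at 1 time, and the labels do not say whether these came from 1 collection. Animal, draw and library preparation cannot be told apart. Libraries of separate subsets are not counted as separate draws, and the p-values below measure the spread among libraries.

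FOS, which encodes c-Fos, had more counts than any other member in every library. It took 0.187% to 1.26% of all counts, and ranked between the 4th and the 42nd most abundant gene of a library. Per length, in the authors' FPKM, FOS came first among the members in 15 of 15 libraries, at 574 to 3713 FPKM. JUNB, a Jun protein often described as a restraint on c-Jun, followed in 14 of 15, at 183 to 513 FPKM. In the CD4 naive before library of RhDBCb JUN, which encodes c-Jun, came ahead of JUNB. JUN otherwise lay with JUND, the most constantly expressed Jun gene, in the next places. FOSB and FOSL2, 2 further Fos genes, came below them, and FOSL1 and ATF3, a stress-induced partner of Jun, were last. Below FOS this order is uncertain, because the FPKM divisor followed the whole span of a gene, introns included. Over 9471 genes the ratio of that divisor to the RefSeq gene span had its quartiles at 0.972 and 1.07 times its median. The divisor of JUNB was 0.381 times that of JUN, and that of JUND 4.76 times, so the place of JUNB above JUND also rests on it. Why the divisors of these Jun genes differ was not tested. For FOSL2 the divisor was 14.8 times and for ATF3 19.9 times that of JUN, which lowers their FPKM values.

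**Figure D1:**
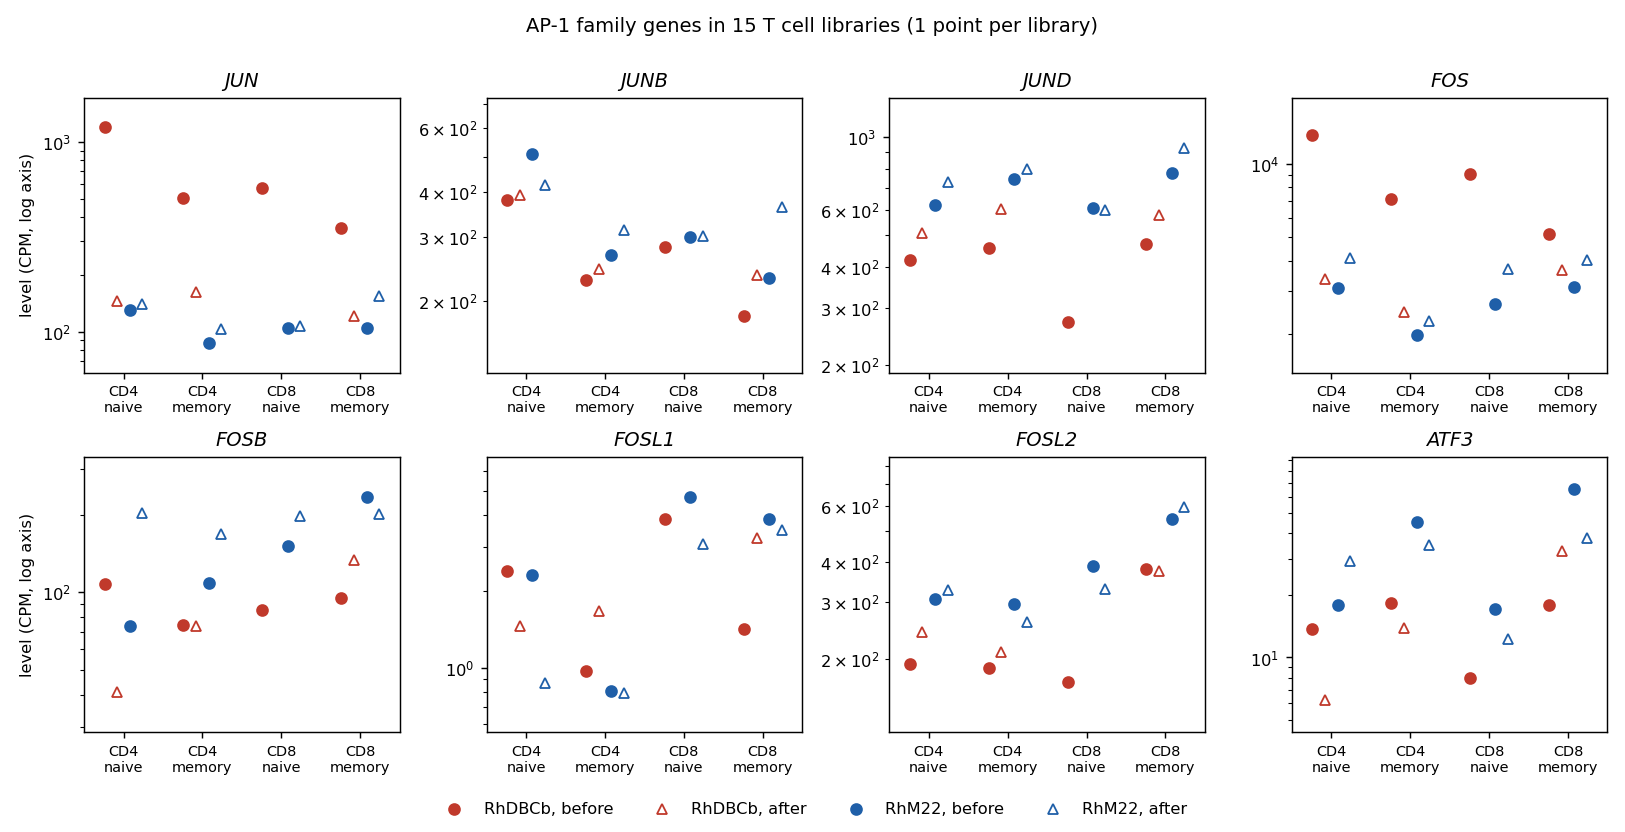
Level of each member in CPM (log axis, own scale per panel) by T cell subset, 1 point per library, filled circles before and open triangles after treatment, red RhDBCb and blue RhM22. JUN and FOS are highest in the 4 before libraries of RhDBCb, at 350 to 1199 CPM and 5149 to 13066 CPM, while JUND is lowest there.

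Whether members differ between naive and memory cells was asked first within the CD4 lineage, over both times and both animals. JUNB was lower in memory than in naive cells. In CD4 naive cells it lay at 379 CPM before and 391 after treatment in RhDBCb, and at 509.6 before and 419 after in RhM22. In CD4 memory cells the same 4 draws gave 229, 244, 267 and 313 CPM. The 2 subsets did not overlap, and the memory library was the lower one in 4 of 4 draws, at 0.524 to 0.747 of the naive level. The log2 fold change was -0.70 (SE 0.15, edgeR adjusted p = 0.00992). JUNB was the 1 member called of 8, in a comparison where 8.38% of all genes tested were called and 3.16% were called lower. That call held without any 1 of the 15 libraries (adjusted p up to 0.0437), but not in the fit without the animal as a block (0.0714) or from the before libraries alone (0.0922). Here and below, the shares of all genes called without the block or from the before libraries alone are not given.

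The other members were not called between CD4 memory and CD4 naive cells. FOS was lower in memory cells in 4 of 4 draws, at 0.549 to 0.729 of the naive level, for a log2 difference of -0.76 (SE 0.37, adjusted p = 0.234). In the 11 libraries other than RhDBCb before treatment it was -0.63 and called (adjusted p = 0.00432). There 13 other early response genes, a list described below, were called too, against 6 over all 15 libraries. The main fit has animal and time as terms but no term for the draw. With each draw as the block, an alternative chosen after seeing the data, FOS was -0.71 (SE 0.20) and called (edgeR adjusted p = 0.0312), where 11.5% of all genes were. JUNB kept its call in that fit (0.00744), and the other 6 members were not called. ATF3 was higher in memory cells in 4 of 4 draws, at 1.19 to 2.52 times the naive level (0.72, SE 0.28, 0.129). JUND was higher in 4 of 4 draws by a small margin, at 1.09 to 1.20 times the naive level (0.20, SE 0.13, 0.388). JUN lay at -0.71 (SE 0.48, 0.416), FOSL1 at -0.70 (SE 0.43, 0.365), FOSL2 at -0.16 (SE 0.14, 0.547) and FOSB at -0.01 (SE 0.30, adjusted p = 1). The large SE of JUN goes with its spread over draws, since its CD4 naive libraries ran from 130.5 to 1199 CPM.

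Within the CD8 lineage 3 of 8 members were higher in memory cells and none was lower, where 13.5% of all genes tested were called, 8.1% higher and 5.39% lower. ATF3 had the largest difference. In CD8 naive cells it lay at 8.00 CPM in RhDBCb before treatment and at 17.2 before and 12.3 after in RhM22. CD8 memory cells of the same draws held 18.0, 65.2 and 37.8 CPM, and those of RhDBCb after treatment, which have no naive partner, 32.7 CPM. The subsets did not overlap, and memory cells held 2.25 to 3.79 times the naive level in 3 of 3 draws. The log2 fold change was 1.83 (SE 0.32, edgeR adjusted p = 0.00173).

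FOSL2, a Fos gene encoding Fra-2, was the next. Its CD8 naive libraries held 169 CPM in RhDBCb before treatment and 391 before and 331 after in RhM22. The memory libraries of these draws held 381, 547 and 595 CPM, and that of RhDBCb after treatment 375 CPM. Memory libraries of RhDBCb lay within the naive range of RhM22, so the separation was seen within draws, at 1.40 to 2.25 times the naive level in 3 of 3. The log2 fold change was 0.81 (SE 0.16, edgeR adjusted p = 0.0033).

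JUND was higher in CD8 memory cells by a smaller margin, with a log2 difference of 0.58 (SE 0.14, edgeR adjusted p = 0.0129). Naive libraries held 271 CPM in RhDBCb before treatment and 608 before and 598 after in RhM22, and the memory libraries of the same draws 470.2, 776 and 926 CPM. Memory cells were higher in 3 of 3 draws, at 1.28 to 1.74 times the naive level, though the subsets overlapped between animals. Its call was lost when either the RhDBCb before (adjusted p = 0.103) or the RhM22 after (0.0852) library of CD8 naive cells was left out. The calls of ATF3 and FOSL2 held without any 1 library (adjusted p up to 0.0191 and 0.0329). Without the animal block none of the 3 was called (adjusted p = 0.113 for ATF3, 0.225 for FOSL2 and 0.454 for JUND), nor from the before libraries alone (0.0723, 0.0865 and 0.21).

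The remaining 5 members were not called between CD8 memory and CD8 naive cells. FOSB lay at 0.32 (log2; SE 0.33, edgeR adjusted p = 0.574), FOSL1 at -0.33 (SE 0.46, 0.686), FOS at -0.27 (SE 0.40, 0.714), JUNB at -0.23 (SE 0.16, 0.396) and JUN at -0.22 (SE 0.52, 0.834). Without the before libraries of RhDBCb, FOS and JUN turned to 0.15 and 0.14. With each draw as the block, FOS was -0.04 (SE 0.22) and JUN -0.02 (SE 0.27). In that fit 16.5% of all genes were called, and ATF3, FOSL2 and JUND kept their calls (edgeR adjusted p = 0.00199, 0.00163 and 0.00686). JUNB was lower in memory cells in 2 of 3 draws and higher in RhM22 after treatment, where the CD8 memory library held 364 CPM.

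**Figure D2:**
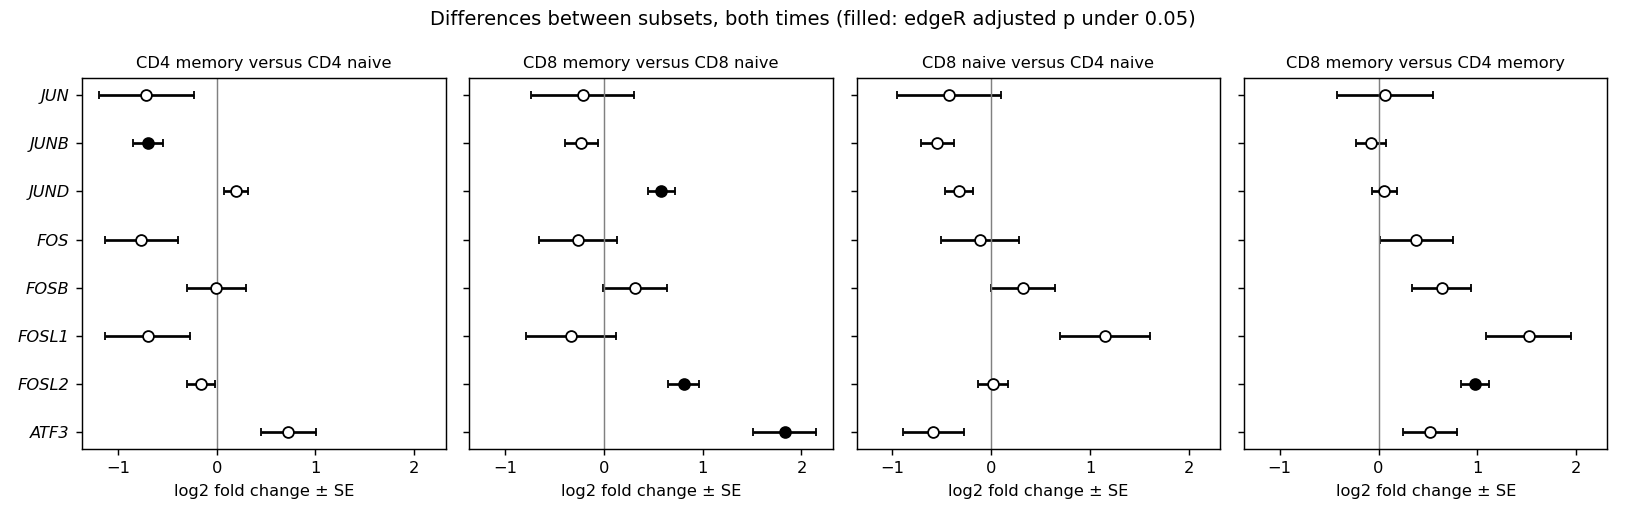
Log2 fold change with its SE for each member in 4 contrasts between subsets over both times, from the edgeR fit on 15 libraries; filled points passed an adjusted p of 0.05. JUNB is the filled point for CD4 memory against naive, JUND, FOSL2 and ATF3 for CD8 memory against naive, and FOSL2 for CD8 against CD4 memory.

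The naive subsets were then compared across lineages, and no member was called, where edgeR called 2.79% of all genes tested, 414 in number, and 1787 had an unadjusted p under 0.05. JUNB was lower in CD8 than in CD4 naive cells in 3 of 3 draws, at 0.589 to 0.742 of the CD4 level. The log2 difference was -0.55 (SE 0.16, adjusted p = 0.116). DESeq2, with 932 genes called, also called JUNB (0.0393). EdgeR did so when CD8 memory cells of RhM22 after treatment were left out (0.0475). FOSL1, a Fos gene encoding Fra-1, was higher in CD8 naive cells in 3 of 3 draws, at 1.61 to 3.55 times the CD4 level (1.16, SE 0.45, 0.287). The other members lay between -0.59 for ATF3 (SE 0.31, 0.502) and 0.32 for FOSB (SE 0.33, 0.803).

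Among memory cells FOSL2 was higher in the CD8 than in the CD4 lineage. CD4 memory libraries held 187 CPM before and 209.9 after treatment in RhDBCb, and 297 before and 261 after in RhM22. The CD8 memory libraries of these draws held 381, 375, 547 and 595 CPM. All 4 CD8 values lay above all 4 CD4 values, and within a draw the ratio was 1.79 to 2.28. The log2 fold change was 0.98 (SE 0.14, edgeR adjusted p = 0.000638), the 1 call among 8 members where 6.35% of all genes tested were called and 3.76% were called higher. It held without any 1 library (adjusted p up to 0.00458), but not without the animal block (0.084) or from the before libraries alone (0.104).

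FOSL1 was close to the threshold in the same comparison. It lay at 0.97 and 1.67 CPM before and after treatment in CD4 memory cells of RhDBCb, and at 0.808 and 0.796 CPM in those of RhM22. CD8 memory cells held 1.43 and 3.25 CPM in RhDBCb and 3.85 and 3.51 CPM in RhM22, higher in 4 of 4 draws. The log2 fold change was 1.52 (SE 0.43, edgeR adjusted p = 0.0525). FOSL1 was called by DESeq2 (0.0075), which called 1672 of all genes tested there. In edgeR it was called without the CD8 memory before (0.0131) or CD4 memory after (0.029) library of RhDBCb. FOSL1 was likewise called without the CD4 naive after library of RhM22 (0.0489) or the 4 before libraries of RhDBCb (0.0172). It was also called with each draw as the block (0.0349), as was FOSL2 (0.000248), where 8.24% of all genes were called. FOSB lay at 0.64 (SE 0.30, 0.272), ATF3 at 0.52 (SE 0.28, 0.344), FOS at 0.38 (SE 0.37, 0.637), and JUN, JUND and JUNB between -0.08 and 0.07. In the 11 libraries other than RhDBCb before treatment, FOS was 0.68 and called (0.00292). Calls among other early response genes there numbered 16, against 8 over all 15 libraries.

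**Figure D3:**
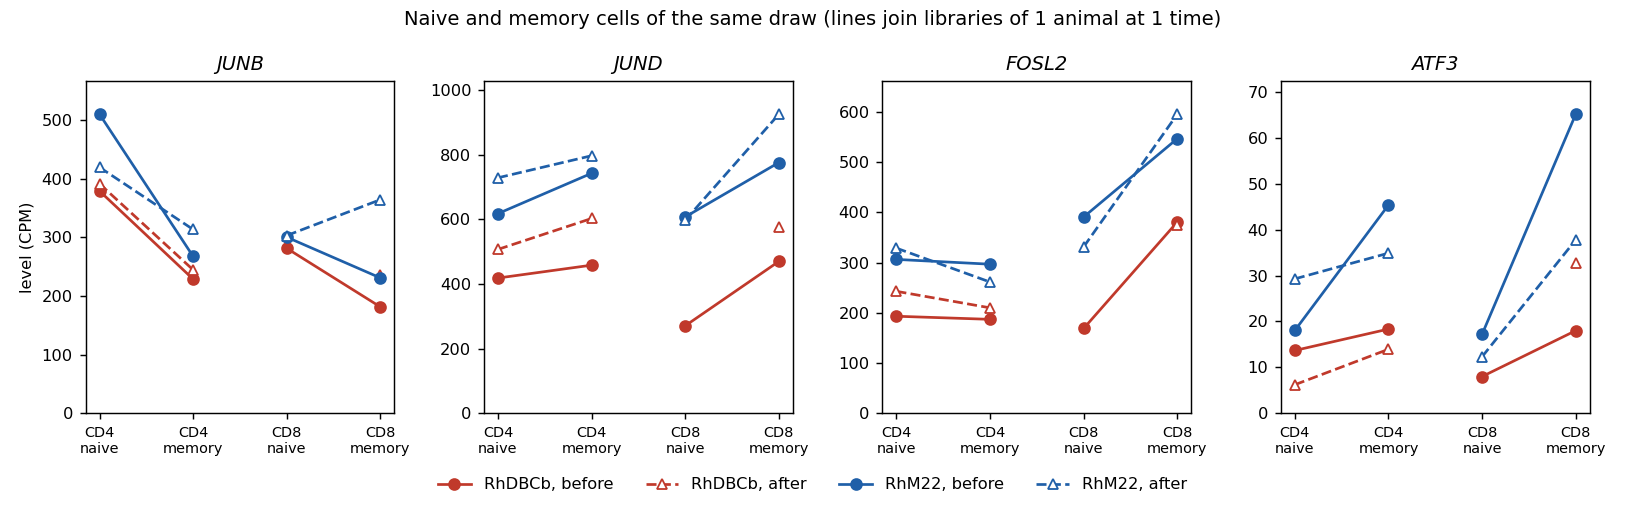
Level in CPM of the 4 members called between subsets, with lines joining naive and memory libraries of 1 animal at 1 time, CD4 at the left and CD8 at the right of each panel; RhDBCb after treatment has no CD8 naive library. JUNB falls along all 4 CD4 lines, and FOSL2 and ATF3 climb along all 3 CD8 lines, while FOSL2 falls along the CD4 lines at 0.795 to 0.969 of the naive level.

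Whether the memory difference of a member was greater in CD8 than in CD4 cells was tested as a contrast of its own, added after the values were seen. All 8 members lay above 0, with a median of 0.48 against 0.05 for all genes tested, and none was called by edgeR. The share of all genes above 0 is not given here, so the direction of the members is a description. That fit called 6 genes, or 0.0405%, with 1007 at an unadjusted p under 0.05. FOSL2 had a difference of 0.96 (log2; SE 0.21, adjusted p = 0.167), and ATF3 of 1.11 (SE 0.41, 0.638). The remaining values ran from 0.32 to 0.50, with SE from 0.19 for JUND to 0.71 for JUN. JUN and FOSB changed sign when some single libraries were left out. DESeq2 called 244 genes there, FOSL2 among them (adjusted p = 0.00217).

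Markers of other cells moved with some of these subsets, and their part in the results was not tested. Bulk RNA cannot tell fewer cells of a type from less RNA per cell. The 4 natural killer markers summed to 19.9 to 65.4 CPM in CD8 memory, 5.05 to 10.8 in CD8 naive and at most 1.19 in CD4 libraries, nearly all from KLRF1, which reached 61.9 CPM. NCAM1 reached 1.80 CPM and FCER1G 0.23 CPM in the highest library, and none of the 4 was at 0 in a CD8 memory library. The 7 monocyte markers summed to 9.30 to 50.3 CPM in CD8 memory and 3.84 to 40.9 CPM in CD8 naive cells. They summed to 12.1 to 48.5 in CD4 memory and 9.29 to 18.4 in CD4 naive cells, with CD14 at most 10.8 CPM in any library and VCAN at 0 in at least 1 library of both naive subsets. The 4 B cell markers reported here summed to 61.3 to 111 CPM in CD8 naive, 26.2 to 37.3 in CD8 memory and 15.2 to 27.3 CPM in CD4 libraries, mostly from CD79A. MS4A1 and PAX5 were at 0 in some CD8 memory library, and edgeR called 1 of the 4 lower in CD8 memory than in CD8 naive cells and 2 higher in CD8 than in CD4 naive cells. Of all genes tested 5.39% were called lower in the first of these comparisons, and 2.79% in either direction in the second. The 7 platelet markers all lay below 0 in both memory against naive comparisons, none of them called. They summed to 3.43 to 97.7 CPM in CD4 naive, 4.25 to 35.2 in CD4 memory, 4.49 to 58.5 in CD8 naive and 2.24 to 39.7 CPM in CD8 memory libraries.

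Next came the change from before to after treatment, by which the labels divide the libraries. Over all subsets and both animals no member was called, where edgeR called 1 gene, or 0.00675% of those tested, and 1526 had an unadjusted p under 0.05. DESeq2 called 177 genes and none of the 8 members. JUN had the largest difference, at -0.76 on the log2 scale (SE 0.40, adjusted p = 0.525), with before libraries at 87.0, 240.5 and 1199 CPM and after libraries at 103, 140.5 and 162 CPM (lowest, median and highest). FOS lay at -0.40 (SE 0.29, 0.655), with before libraries at 1987, 4131 and 13066 CPM and after libraries at 2258, 3663 and 4101 CPM. JUND lay at 0.25 (SE 0.09, 0.417) and was higher after treatment in 6 of 7 pairs. FOSB lay at 0.19 (SE 0.22, 0.804), JUNB at 0.14 (SE 0.11, 0.697) and FOSL2 at 0.08 (SE 0.10, 0.831). ATF3 lay at -0.22 (SE 0.21, 0.741) and FOSL1 at -0.14 (SE 0.32, 0.917). Before and after values overlapped for every member. Without the 4 before libraries of RhDBCb, which leaves the change in RhM22, JUN was 0.24 and FOS 0.36, the opposite direction, and neither was called (adjusted p = 0.682 and 0.195).

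In single subsets no member was called in any of the 4, and edgeR called no gene at all, or 0%. DESeq2 called 9 genes in CD4 naive cells and 0 in the others, none of them a member, and edgeR had 603, 230, 148 and 216 genes at an unadjusted p under 0.05 in CD4 naive, CD4 memory, CD8 naive and CD8 memory cells. The log2 difference of JUN was -1.54 for CD4 naive (SE 0.74, edgeR adjusted p = 0.897), -0.74 for CD4 memory (SE 0.72), -0.52 for CD8 naive (SE 0.92) and -0.22 for CD8 memory cells (SE 0.71), with an adjusted p of 1 in the last 3. FOS lay at -0.78, -0.71, -0.04 and 0.03 in the same order, with SE of 0.54 to 0.69. The CD8 naive values rest on RhM22 for their after library, and their animal term comes from the other groups. In the only CD8 naive pair, that of RhM22, the log2 change was 0.05 for JUN and 0.48 for FOS, opposite in sign to the fitted values. JUNB had its highest value in CD8 memory cells, 0.53 (SE 0.21, adjusted p = 1), and was higher after treatment in both animals there.

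**Figure D4:**
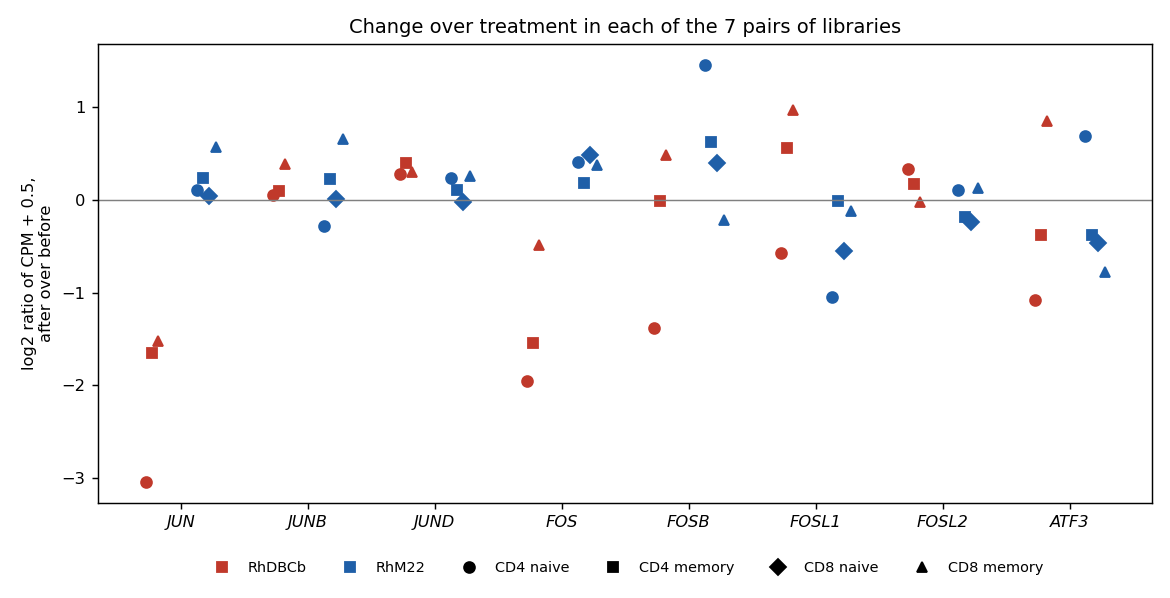
Log2 ratio of CPM after over before treatment (0.5 CPM added to both) for each member in the 7 pairs of libraries of 1 animal and subset, red RhDBCb and blue RhM22, with the subset given by the symbol. All 3 red points of JUN and of FOS lie below 0 and all 4 blue points above it, whereas JUND lies between -0.02 and 0.39 in both animals.

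The animals were far apart in JUN. In RhDBCb before treatment CD4 naive cells held 1199 CPM of JUN, CD4 memory cells 507, CD8 naive cells 574 and CD8 memory cells 350.5 CPM. After treatment CD4 naive cells of the same animal held 146, CD4 memory cells 162 and CD8 memory cells 121 CPM. RhM22 held 130.5, 87.0, 104 and 104 CPM before and 140.5, 103, 108 and 154 CPM after treatment, in the order CD4 naive, CD4 memory, CD8 naive and CD8 memory. The 4 before libraries of RhDBCb thus lay above all 11 other libraries, which lay between 87.0 and 162 CPM. The fitted log2 change was -2.13 in RhDBCb (SE 0.29) and 0.26 in RhM22 (SE 0.24), a difference of 2.40 (SE 0.37). The difference lay between 2.04 and 2.67 without any 1 library. Each such fit kept other before libraries of RhDBCb, so that range cannot show what another draw or animal would give. The SE measures the spread among libraries, not between animals. The changes per animal chose the members, and the 10.1% of genes called in RhDBCb, 0.0608% in RhM22 and 4.58% in the difference are given as background.

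FOS had the same arrangement. In RhDBCb before treatment CD4 naive cells held 13066 CPM, CD4 memory cells 7177, CD8 naive cells 9069.5 and CD8 memory cells 5149 CPM. After treatment CD4 naive cells of that animal held 3369, CD4 memory cells 2456 and CD8 memory cells 3663 CPM. RhM22 ran from 1987 to 3114 CPM before and from 2258 to 4101 CPM after treatment. All 4 before libraries of RhDBCb lay above the 11 others. The log2 change was -1.40 in RhDBCb (SE 0.22) and 0.36 in RhM22 (SE 0.19), a difference of 1.77 (SE 0.30). Without any 1 library the difference lay between 1.58 and 2.05, with the same limits on range and SE as for JUN. In RhDBCb the pairs of CD4 naive (-1.96) and CD4 memory cells (-1.55) differed more than the CD8 memory pair (-0.49).

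The other 6 members did not share the high values of JUN and FOS in these 4 libraries. JUND was lowest there, at 404.5 ± 91.9 CPM (SD over subsets, n = 4), against 563 ± 49.6 (n = 3) in RhDBCb after, 686 ± 85.8 before and 763 ± 137 after treatment in RhM22 (n = 4 each). FOSL2 lay at 232 ± 99.4 CPM in RhDBCb before and 276 ± 87.6 after, and at 385 ± 116 and 379 ± 148 in RhM22. ATF3 lay at 14.5 ± 4.83 and 17.6 ± 13.6 CPM in RhDBCb, and at 36.5 ± 23.2 and 28.6 ± 11.4 in RhM22. FOSB lay at 90.7 ± 13.9 and 82.6 ± 46.6 CPM before and after in RhDBCb, and at 142 ± 69.0 and 192 ± 16.3 in RhM22, where the after libraries lay closer together. JUNB lay at 267 ± 84.7 and 291 ± 87.1 CPM in RhDBCb, and at 327 ± 125 and 349.9 ± 53.4 in RhM22. The log2 differences between the animals' changes were 0.81 for FOSB (SE 0.41), 0.05 for JUNB (SE 0.22), 0.00 for ATF3 (SE 0.46), -0.25 for JUND (SE 0.16), -0.29 for FOSL2 (SE 0.18) and -0.84 for FOSL1 (SE 0.59).

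Several other measures moved with the high JUN and FOS values of RhDBCb before treatment, and their part was not tested. Detected genes numbered 13525 to 14750 before and 14410 to 15034 after in that animal, and 14782 to 15445 in RhM22. The 7 platelet markers summed to 2.24 to 4.49 CPM before and 13.7 to 26.9 after in RhDBCb, and to 21.9 to 97.7 in RhM22, with GP9 at 0 in all 4 before libraries of RhDBCb. The 7 monocyte markers summed to 3.84 to 12.1 CPM before and 10.5 to 46.0 after in RhDBCb, and to 9.29 to 50.3 in RhM22, with VCAN at 0 in at least 1 library of RhDBCb at each time. The platelet sums of the 4 libraries with high JUN and FOS thus lay below those of the 11 others, and their monocyte sums lay at the low end. The 5 neutrophil markers summed to at most 2.38 CPM and the 4 erythroid markers to at most 1.10 CPM there.

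Other early response genes went both ways in RhDBCb, more of them below 0 than above. Of 37 measured on a list of 41, 14 lay above 0 and 23 below 0 in RhDBCb, with a median log2 change of -0.30 against 0.00 for all genes tested. In RhM22 18 lay above and 19 below 0, with a median of 0.00. The 3 lowest in RhDBCb were DUSP1, a phosphatase that shuts off MAP kinases, at -1.94 (SE 0.32), RGS1, a regulator of G protein signals, at -1.59 (SE 0.24) and TSC22D3, a glucocorticoid-induced gene, at -1.43 (SE 0.19). The 3 highest were IER3 at 2.06 (SE 0.72), EGR1, a zinc finger factor often induced together with FOS, at 1.75 (SE 0.45) and SOCS3, a cytokine signal inhibitor, at 0.89 (SE 0.18). Over the libraries IER3 lay at only 0 to 3.08 CPM, EGR1 at 0.354 to 15.5 and SOCS3 at 15.8 to 224 CPM. DUSP1 lay at 1286 to 12723 CPM, RGS1 at 154 to 1250 and TSC22D3 at 4112 to 24326 CPM. These 6 were picked after their values were seen, and the list as a whole was not tested.

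**Figure D5:**
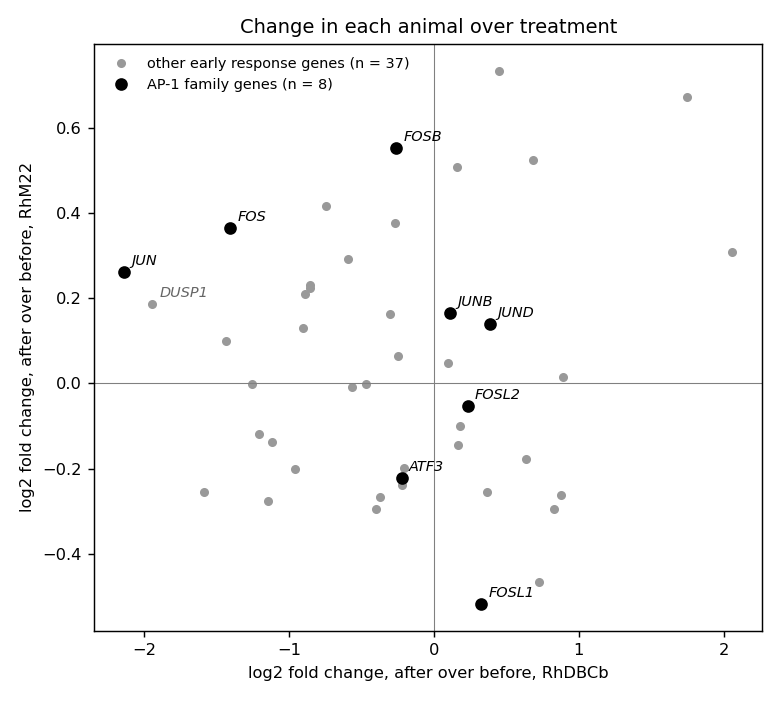
Log2 fold change after over before treatment in RhDBCb (horizontal) and in RhM22 (vertical), with axes of different scale, for the 8 members (black) and 37 other early response genes (grey). JUN (-2.13) and FOS (-1.40) lie at the left beside DUSP1, and the other 6 members lie between -0.26 and 0.39 in RhDBCb.

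Genes around AP-1 were followed as 4 further lists. Of 22 measured partners and competitors, 1 was higher and 2 were lower in CD4 memory than in CD4 naive cells, and 2 were higher and 1 lower in CD8 memory than in CD8 naive cells. Over all genes tested 8.38% and 13.5% were called in these comparisons. The CD4 count of 3 was 0 from the before libraries alone, and with each draw as the block the counts were 5 and 6. BACH2, a repressor that competes at AP-1 sites and is linked to the naive state, was lower in both (log2 -2.57, SE 0.37, edgeR adjusted p = 0.000541 and -2.45, SE 0.38, 0.000844). MAF, a large Maf factor, was higher in both (1.96, SE 0.45, 0.0151 and 3.31, SE 0.55, 0.00132). BATF, a Jun partner that acts with IRF4 in activated T cells, was higher in CD8 memory cells (1.89, SE 0.55, 0.0356), and DDIT3, a stress-induced factor, lower in CD4 memory cells (-0.68, SE 0.15, 0.0125). The medians of the list were 0.00 and 0.27, against -0.03 and 0.03 for all genes tested. Between lineages MAF and NFATC1, the NFAT factor that amplifies its own expression, were lower in CD8 than in CD4 cells, both naive and memory. NFATC3 and ATF4 were higher in CD8 memory cells (1.07, SE 0.26, 0.0244 and 0.65, SE 0.15, 0.0203). Between memory cells 4 of this list were called, where 6.35% of all genes were. The count was 1 without the CD4 memory library of RhM22 before or of RhDBCb after treatment. It was 2 without either CD8 memory library of RhM22 or its CD4 memory library after treatment. The 2 called between naive cells, where 2.79% of all genes were called, became 1 on leaving out any of 9 single libraries. No gene of this list was called between memory cells without the animal block or from the before libraries alone.

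Of 24 measured upstream kinases and factors, 3 were higher and 1 was lower in CD4 memory cells, and 5 were higher and 1 lower in CD8 memory cells, against the same 8.38% and 13.5% of all genes. The CD4 count of 4 was 1 without the CD4 naive library of RhM22 from either time, and 2 without the CD4 memory before library of either animal or the CD4 memory after library of RhM22. Without the animal block the counts were 1 in CD4 and 3 in CD8 cells, and from the before libraries alone 0 and 2. ELK3, a ternary complex factor that acts with SRF, was higher in both (log2 0.73, SE 0.16, edgeR adjusted p = 0.0102 and 1.06, SE 0.18, 0.00131), as was MAP3K5, a stress kinase upstream of JNK and p38 (0.68, SE 0.16, 0.0147 and 1.10, SE 0.18, 0.000944). MRTFB, a co-activator of SRF, was lower in both (-0.81, SE 0.23, 0.0443 and -1.55, SE 0.25, 0.00106). FBXW7, part of a ubiquitin ligase that acts on c-Jun, was higher in CD4 memory cells (0.86, SE 0.23, 0.0306), and MAP2K3, a p38 kinase kinase, in CD8 memory cells (1.86, SE 0.37, 0.00365). The medians were 0.08 and 0.26. MAP3K5 was lower in CD8 than in CD4 cells, both naive (-1.15, SE 0.18, 0.00163) and memory (-0.73, SE 0.16, 0.0116). ITCH, a ubiquitin ligase of Jun proteins, was higher in CD8 memory than in CD4 memory cells (0.67, SE 0.17, 0.0272). Between memory cells these 2 were the calls of the list, where 6.35% of all genes were called. There were 0 without the CD4 memory before library of RhM22 or from the before libraries alone, and 1 without the animal block. The count was 5 without the before libraries of RhDBCb, and 7 with DESeq2 or with each draw as the block.

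Of 18 measured classical AP-1 targets, 7 were higher and 0 lower in CD4 memory cells, where 5.22% of all genes were called higher, and 11 were higher and 0 lower in CD8 memory cells, where 8.1% were. The medians were 1.39 and 2.02. Many of these genes are also effector genes by which memory cells are known. LMNA, a nuclear lamin, was higher in both (log2 2.29, SE 0.27, edgeR adjusted p = 0.000138 and 2.88, SE 0.32, 7.66e-05). So were HMOX1, the haem-degrading enzyme (1.77, SE 0.30, 0.00194 and 2.34, SE 0.34, 0.000488), and FASLG, the death ligand (2.24, SE 0.43, 0.00508 and 2.94, SE 0.49, 0.00132). Without the before libraries of RhDBCb the counts were 8 and 10. The CD4 count was 4 without the CD4 naive before library of either animal, the CD4 memory after library of either animal or the CD4 memory before library of RhM22. It was 3 without the animal block and 1 from the before libraries alone, and the CD8 count was 6 from the before libraries alone. Between lineages PLAU, the urokinase protease, and FASLG were higher in CD8 cells, both naive and memory. IFNG, the interferon, was higher in CD8 memory cells (2.20, SE 0.47, 0.0111). IL2RA, a chain of the interleukin-2 receptor, and TIMP1, a protease inhibitor, were lower in CD8 naive cells. Over the libraries PLAU lay at 0 to 5.36 CPM and IFNG at 0.224 to 5.18 CPM. These were 4 calls between naive and 3 between memory cells, where 2.79% and 6.35% of all genes were called. The naive count was 0 to 5 without 1 library, 1 without the animal block and 0 from the before libraries alone. The memory count was 3 to 5 without 1 library and 1 from the before libraries alone. It was 5 with DESeq2 and 7 without the before libraries of RhDBCb.

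Of the 37 other early response genes, 2 were higher and 4 lower in CD4 memory cells, and 5 were higher and 3 lower in CD8 memory cells, against 8.38% and 13.5% of all genes. The CD4 count of 6 was 10 when CD4 naive cells of RhDBCb after treatment were left out, and 3 when CD4 memory cells of RhM22 after treatment were. The CD8 count of 8 was 4 without the CD8 naive library of RhDBCb before or of RhM22 after treatment, and 5 without the CD8 memory before library of RhM22. From the before libraries alone both counts were 1, and without the animal block the CD8 count was 3. KLF10, a TGF-beta-induced factor, and DUSP4, a MAP kinase phosphatase, were higher in both, at log2 values of 1.23 (SE 0.27, edgeR adjusted p = 0.0122) and 1.07 (SE 0.27, 0.0251) in CD4 cells. SGK1, a kinase, and BTG1, an anti-proliferative gene, were lower in both, at -1.55 (SE 0.24, 0.000988) and -0.73 (SE 0.13, 0.00239) in CD4 cells. Between CD8 and CD4 memory cells 7 were higher and 1 was lower, with a median of 0.32, where 6.35% of all genes were called. The count of 8 was 16 without the before libraries of RhDBCb, 2 without the animal block and 1 from the before libraries alone. It was 5 without the CD4 memory before library of either animal or without either memory library of RhM22 after treatment. EGR1 (2.45, SE 0.46, 0.00483), RGS2, a regulator of G protein signals (1.50, SE 0.23, 0.00118) and CXCR4, a chemokine receptor (1.19, SE 0.21, 0.00303) were higher in CD8 memory cells. Over treatment in all subsets edgeR called no gene of the 4 lists. The smallest p of these lists belonged to BTG1 (-0.34, SE 0.09, 0.325), MRTFA (0.47, SE 0.13, 0.334), PLAU (-1.88, SE 0.56, 0.339) and NFE2L2 (-0.23, SE 0.08, 0.396). DESeq2 called 3 other early response genes and 1 upstream gene there, among 177 genes in all.

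Likeness of pattern was measured as Pearson's r of log2 CPM over the 15 libraries, which share 4 draws and their depth, and is a description. The genes most like FOS were DUSP1 (r = 0.98, 1286 to 12723 CPM), ALG11 (0.97) and PPM1D (0.96). For the 11 libraries other than the before libraries of RhDBCb these were 0.88, 0.92 and 0.79. The genes most like JUN were ALG11, ALKBH1 and MRPS30 (0.97, 0.96 and 0.96), with 0.64, 0.56 and 0.74 over the 11, so that the likeness of JUN leaned on the 4 high libraries. JUN and FOS themselves had r = 0.94 over 15 and 0.52 over 11 libraries.

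The other members had other companions. JUNB was most like TACC3 (0.93), USP20 (0.87) and CD247 (0.87), and JUND most like ARFGAP1 (0.96), TLNRD1 (0.95) and CHERP (0.95). FOSB was most like SERTAD2 (0.91), HDAC7 (0.91) and MYLIP (0.89), and FOSL1 most like GNPDA1 (0.93), USP11 (0.87) and PDE3B (0.85). FOSL2 was most like GATAD2A (0.93), WWC3 (0.91) and GMIP (0.91), and ATF3 most like GNA13 (0.91), KAT6A (0.90) and ETF1 (0.90). For these 6 members r stayed between 0.80 and 0.94 over the 11 libraries. Among the members JUND and ATF3 had r = 0.74 over 15 and 0.80 over 11 libraries, and FOSB and ATF3 0.69 and 0.68.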

How the data were processed

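RNA from 15 T cell libraries was made into SMART-Seq v4 libraries from polyadenylated RNA, per the labels. That kit does not mark strand. The authors deposited RSEM expected counts per gene, unscaled, and FPKM values. The submitters' processing notes name RSEM 1.3.3, STAR 2.7.6a and cutadapt 1.18 as tools and Mmul_10 and rheMac10 as builds. No positions or sequences are given. The expected counts were rounded, and no library total shifted by more than 26.1 counts. The deposited FPKM served for the order of members within a library only.

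Genes were filtered with filterByExpr by group (minimum count 10), scaled by TMM and tested by the quasi-likelihood method of edgeR, adjusted by Benjamini-Hochberg over 14814 genes (R 4.3.3, edgeR 4.0.16, limma 3.58.1, DESeq2 1.42.0). Calls use an adjusted p under 0.05. SE is the absolute log2 fold change over the square root of F. Treatment over all subsets and contrasts between subsets came from a model of subset, animal and time, effects in single subsets from 8 groups plus animal, and changes per animal from subset plus an animal-by-time term. All 15 libraries share 1 estimate of the spread. The fit was also run on simulated counts that held no animal or draw effect. That run cannot show how the p-values behave in these libraries, and its outcome is not given here.

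The animal is the block, since the labels name it. The animal difference before correlated with that after treatment, across 14814 genes, with r of 0.317 for CD4 naive, 0.445 for CD4 memory and 0.296 for CD8 memory cells. Members, lists and tests were chosen with earlier results of these data known. All members are named. From each list up to 3 called genes per direction and comparison by smallest p are eligible, otherwise the 2 with the smallest p, and for likeness the 3 genes with the highest r and a mean of at least 5 CPM. Log2 CPM for likeness used a prior count of 2. A few list members without a row of their symbol were not analysed here, and 1 B cell marker is not reported here.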

Additional observations from a re-analysis of the deposited data

Results flagged for a closer look

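Among 40 groups of 4 to 8 libraries examined (8 members, the before and after libraries and the subsets with 4 libraries), 5 had 1 library far from the rest, and chance flags about 1 group in 20. Of the 5, 4 are JUN or FOS in RhDBCb before treatment, values that bear on the choice of the members, so their number supports nothing. JUN in the CD4 naive before library of RhDBCb, at 1199 CPM, stood apart from the other before libraries (next 574 CPM) and from the other CD4 naive libraries (next 146 CPM). FOS stood apart at 13066 CPM in that library (next CD4 naive library 4101 CPM) and at 7177 CPM in the CD4 memory before library of RhDBCb (next CD4 memory library 2456 CPM). FOSL2 in the CD8 memory after library of RhM22, at 595 CPM, stood apart from the other after libraries (next 375 CPM). The mean change over pairs of JUN was higher in RhM22 than in RhDBCb by 2.31 and that of FOS by 1.69 on the log2 scale. All 3 pairs of RhDBCb were lower and all 4 of RhM22 higher after treatment, and this difference was not tested because it chose the members.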

How the results depend on the processing

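Counts of members called held under RLE scaling and without the filter on low counts in every comparison. Without the animal block (no replicate block) the counts were 0 for CD4 memory against naive, CD8 memory against naive and CD8 against CD4 memory, where 1, 3 and 1 were called, and so were they from the before libraries alone, which use fewer libraries. The shares of all genes called there are not given here, so whether the fall was particular to the members is not known. DESeq2 called 1 in CD8 against CD4 naive (JUNB), 2 in CD8 against CD4 memory and 1 in the CD8 less CD4 memory difference (FOSL2). In the same order DESeq2 called 932, 1672 and 244 of 14814 genes, and edgeR 414, 941 and 6. Without the before libraries of RhDBCb the counts were 2 for CD4 memory against naive and 3 for CD8 against CD4 memory. Other early response genes called rose there too, from 6 to 13 and from 8 to 16, so the gain was not particular to the members. The share of all genes called in that fit is not given here. With each draw as the block, chosen after seeing the data, the counts were 2 for CD4 memory against naive and 2 for CD8 against CD4 memory. Leaving out 1 library gave 1, 2 to 3, 0 to 1 and 1 to 2 called in the order CD4 memory against naive, CD8 memory against naive, CD8 against CD4 naive and CD8 against CD4 memory, and 0 in all comparisons of treatment. Treatment in CD8 naive cells gave no value without its after library. Classical AP-1 targets called ranged from 4 to 8 in CD4 and 8 to 12 in CD8 memory against naive without 1 library. They were 3 without the block in CD4, and 1 (CD4) and 6 (CD8) from the before libraries alone. The cause of these shifts was not tested. For treatment over all subsets JUN (0.243), FOS (0.363) and FOSL2 (-0.0487) changed sign without the 4 RhDBCb before libraries. So did JUN (0.142) and FOS (0.153) in CD8 memory against naive, JUNB (0.00102) in CD8 against CD4 memory and FOSB (0.34) in CD4 memory against naive. FOSB there was 0.0153 with DESeq2, 0.0156 with RLE scaling, 0.0164 without the filter, 0.00455 without the block and 0.0686 with each draw as the block. JUN in CD8 against CD4 memory was -0.13 without the block and -0.23 from the before libraries. Leaving out 1 library also turned the sign of values near 0 (log2 ranges): FOSL1 under treatment (-0.33 to 0.0301), FOSB in CD4 memory against naive (-0.25 to 0.40), JUN in CD8 memory against naive (-0.79 to 0.0213), and in CD8 against CD4 naive JUN (-0.68 to 0.27), FOS (-0.32 to 0.30) and FOSL2 (-0.15 to 0.19). In CD8 against CD4 memory the ranges were -0.52 to 0.36 for JUN and -0.23 to 0.0108 for JUNB, and in the CD8 less CD4 difference -0.26 to 0.76 for JUN and -0.0769 to 0.57 for FOSB. None of these values was called, with the alternative or without it. With 2 animals, small effects of treatment on the members cannot be told from none.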
